A study of Mus musculus with 59 samples.

Results

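Oxidative stress genes that the transcription factor NRF2 controls were followed in embryoid bodies exposed to mouse serum. The set consisted of 10 genes, picked by symbol, and all 10 were found among the 19613 genes of the expression table. They are Nfe2l2 and Keap1, the regulators of the pathway, and its targets Gclc, Gclm, Gsr, Txnrd1, Srxn1, Prdx1, Nqo1 and Hmox1. The indicator cells were embryoid bodies containing spinal motor neurons, grown from HBG3 mouse embryonic stem cells in which a fluorescent protein is driven by the motor neuron promoter HB9. Serum was added for 24 h and came either from male mice hemizygous for a mutant human SOD1 transgene, a model of amyotrophic lateral sclerosis, before symptom onset (carrier serum, 29 arrays), or from their littermates without the transgene (non-carrier serum, 30 arrays). All donors were F1 progeny of C57BL/6 and SJL mice, and the labels give 9 weeks for 53 arrays and 10 weeks for 6 arrays, taken here as the age of the donors. The transgene was in the serum donors and not in the cells, and all cells came from 1 stem cell line.

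NRF2, the protein of Nfe2l2, is held in the cytoplasm and handed to degradation by KEAP1 in unstressed cells. Oxidants and electrophiles modify KEAP1, after which NRF2 accumulates, pairs with small MAF proteins and binds antioxidant response elements in front of genes for glutathione synthesis, thioredoxin recycling, quinone reduction and haem breakdown. In the nervous system this programme is best known from astrocytes.

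The core of the antioxidant response element was searched as TGACNNNGC on both strands of the RefSeq promoter windows of GRCm38.p6, which reach from 250 bases before to 50 bases after a gene's start. Windows were matched by symbol for 7 of the 10 genes, Nfe2l2, Keap1, Gclm, Txnrd1, Srxn1, Prdx1 and Nqo1. Hmox1, Gclc and Gsr had no entry. The motif was present in 5 of these 7 genes, beside 14% of all 27025 genes with a window (12.4% of 32851 windows), and Txnrd1 held it in the second of its 3 windows. The matches are shown as letters that fit the searched core. Capitals mark the 9 bases of the motif, and each stretch runs 5′ to 3′ along the strand of its gene.
Nfe2l2, chr2:75704885-75704913, minus strand: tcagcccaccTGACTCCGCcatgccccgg
Gclm, chr3:122245413-122245441, plus strand: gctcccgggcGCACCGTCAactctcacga
Txnrd1, chr10:82859104-82859132, plus strand: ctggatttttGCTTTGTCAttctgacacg
Srxn1, chr2:152105542-152105570, plus strand: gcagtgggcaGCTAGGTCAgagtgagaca
Prdx1, chr4:116685456-116685484, plus strand: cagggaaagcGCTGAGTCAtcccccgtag
The motif of Nfe2l2 lies 240 bases before the start and reads along the strand of the gene. That of Txnrd1 begins 92 bases before the start and that of Srxn1 28 bases after it, those of Gclm and Prdx1 also lie before the start, and these 4 read along the opposite strand. A match describes letters in the window and not a bound site, and no match in the windows of Keap1 and Nqo1 says only that these letters are not there.

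The arrays were read as 9 runs, named from their titles, because the labels give no batch. A run held 4 to 11 arrays of both kinds of serum, and run C, with 11, holds more than 1 batch. Median intensities were 164.3 to 182.7 on the arrays titled motorneuron and 151.5 to 167.9 on all others. The motor neuron genes Olig2, Mnx1, Isl1, Lhx3 and Chat had mean log2 intensities from 8.81 to 10.5 with carrier serum, brighter than at least 77.2% of all genes. Every array stands for serum of 1 donor mouse as far as the labels tell, and where cultures were shared within a run the p-values measure the spread between such arrays. Since whole embryoid bodies were measured, fewer cells of a type and less RNA per cell cannot be told apart.

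With carrier serum, Hmox1 was the gene of the set that changed. Hmox1 encodes haem oxygenase 1, the inducible enzyme that breaks haem down to biliverdin, iron and carbon monoxide. Its log2 intensity with carrier serum had a lowest value of 6.49, a median of 7.10 and a highest value of 7.95. With non-carrier serum the lowest value was 6.55, the median 7.45 and the highest 8.04. The ranges of the groups overlapped over nearly their whole length, with the carrier median below the non-carrier median. The group means were 7.13 ± 0.34 (SD, n = 29) for carrier and 7.38 ± 0.36 (SD, n = 30) for non-carrier serum. Within runs, Hmox1 fell by 0.22 on the log2 scale (standard error 0.059, 95% confidence interval -0.34 to -0.098, adjusted p from limma 0.0365), which is 0.860 of the non-carrier level. Of the 10 genes, 1 was called, beside 2.33% of all genes (457, of which 323 were lower). Among the called genes, 39 fell by more than Hmox1.

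**Figure D1:**
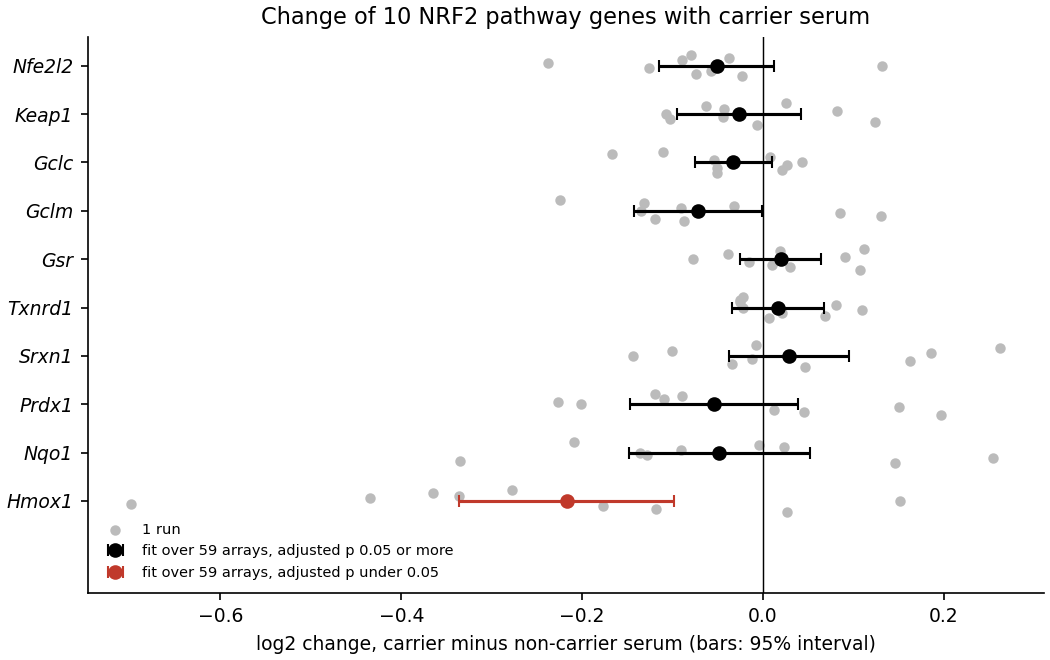
Log2 change of each of the 10 genes with carrier serum relative to non-carrier serum (x axis, log2 units), with 1 row per gene; large points are fits over 59 arrays with 95% confidence intervals, and grey points are the differences of group means in each of the 9 runs. The interval of Hmox1 runs from -0.34 to -0.098, and its 9 runs spread from -0.70 to 0.15.

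The fall of Hmox1 was uneven across runs. In run B the 3 carrier arrays read 6.50, 6.80 and 6.66 and the 3 non-carrier arrays 7.29, 7.27 and 7.50, a difference of -0.70. In run D carrier arrays read 7.05, 6.94 and 7.20 against 7.48, 7.62, 7.52 and 7.37, a difference of -0.43. In run F they read 7.16, 7.13 and 7.07 against 7.48, 7.44 and 7.53, a difference of -0.36. The groups did not overlap in these runs, nor in the 10-week run, where carrier arrays read 7.39, 7.397 and 7.32 against 7.82, 7.45 and 7.67. For all genes, every carrier array lay below every non-carrier array in 5.26% in run B, 7.64% in run D, 13.1% in run F and 8.30% in the 10-week run.

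In the other runs the groups overlapped. The difference was -0.34 in run E, with carrier arrays at 7.34, 7.44 and 7.002 and non-carrier arrays at 7.36, 7.71 and 7.71. It was -0.18 in run A and -0.12 in the run titled HB9MNs. In the run titled motorneuron the 3 carrier arrays read 7.41, 7.88 and 7.95 and the 4 non-carrier arrays 7.23, 7.95, 8.04 and 7.65, a difference of 0.027. Run C went the other way, with a difference of 0.15. Split where the sample list passes from carrier back to non-carrier arrays, run C gave 0.025 in its first block (3 carrier and 2 non-carrier arrays) and 0.20 in its second (3 and 3). The mean was therefore lower with carrier serum in 7 of 9 runs.

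**Figure D2:**
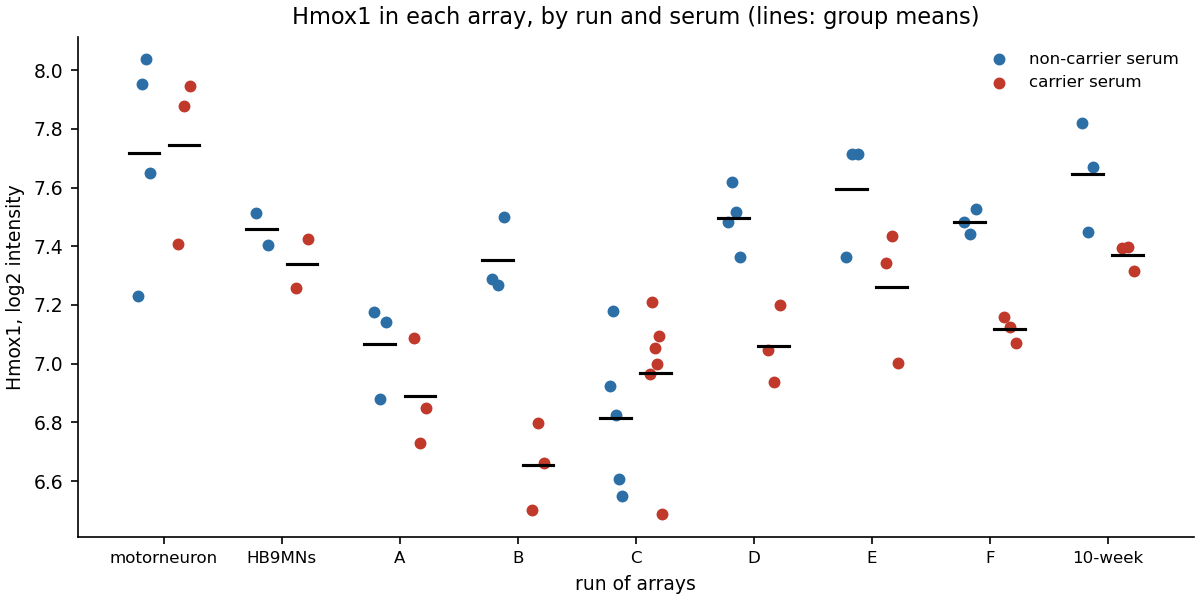
Log2 intensity of Hmox1 (y axis) in every array, by run (x axis) and kind of serum, with a line at the mean of each group. Carrier arrays lie below all non-carrier arrays in runs B, D, F and 10-week, and the group mean with carrier serum is the higher one in runs motorneuron and C.

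The call of Hmox1 stood close to the threshold. It was lost when run A, B, D, E, F or 10-week was left out, with adjusted p from limma between 0.0715 (without run A) and 0.190 (without run D), and was kept without the motorneuron run, HB9MNs or run C. The change itself ranged from -0.30 without run C to -0.16 without run B. Without the 2 arrays of low within-run correlation, 1 of run C and 1 of run E, the adjusted p was 0.0513, and with no block for the run it was 0.995 (over all 22 alternatives 7.14e-04 to 0.995). Without run A, B, D, E, F or 10-week limma called 0.54% to 1.38% of all genes, beside 2.33% with all runs. Without the motorneuron run, HB9MNs or run C it called 3.07% to 8.16%. With no block it called 0 of all genes, and without the 2 arrays 3.65%. Markers of other cell types gave these values: the summed intensity of 4 macrophage markers (Csf1r, Adgre1, Cd68, Ptprc) was 327 to 520 with carrier and 326 to 505 with non-carrier serum, and 0 of the 4 were called. That of 5 motor neuron genes was 2675 to 3883 and 3112 to 3829, with 0 called. At an unadjusted p under 0.05 limma gave 2 macrophage and 3 motor neuron markers, beside 20.7% of all genes. Of genes of red blood cells, Hbb-b1, a beta globin with near-identical copies and so of uncertain level, had a difference of 0.16 (standard error 0.064, unadjusted p from limma 0.0137, adjusted p 0.144) with a lower carrier mean in 3 of 9 runs, and Alas2, the erythroid enzyme of haem synthesis, had a difference of 0.017 (adjusted p from limma 0.769). RMA intensities do not reach 0, the lowest value of the table being 4.53. Their part in the result was not tested.

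The regulators Nfe2l2 and Keap1 missed the threshold. Nfe2l2 had a log2 intensity of 8.19 ± 0.20 (SD, n = 29) under carrier and of 8.25 ± 0.22 (SD, n = 30) under non-carrier serum, and its change was -0.051 (95% confidence interval -0.11 to 0.013, adjusted p 0.345), with a lower mean in 8 of 9 runs. Keap1 encodes the adaptor that presents NRF2 to the CUL3 ubiquitin ligase. It read 8.30 ± 0.27 (SD, n = 29) and 8.31 ± 0.28 (SD, n = 30), with a change of -0.026 (-0.094 to 0.043, adjusted p 0.673). NRF2 itself is set mainly by protein stability, which these arrays do not measure.

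Among the glutathione genes, Gclm had the lowest p. Gclc and Gclm encode the catalytic and the modifier subunit of glutamate-cysteine ligase, the rate-limiting enzyme of glutathione synthesis, and Gsr encodes the reductase that regenerates glutathione. Gclm read from 8.01 through a median of 8.68 to 9.28 with carrier serum and from 7.98 through 8.77 to 9.37 with non-carrier serum, so that the groups overlapped fully. Its change was -0.071 (95% confidence interval -0.14 to -6.32e-04), lower in 7 of 9 runs, with an unadjusted p of 0.0481 from limma and an adjusted p of 0.238. For serum, 20.7% of all genes had an unadjusted p under 0.05 by limma. The change of Gclc was -0.033 (-0.075 to 0.0099, adjusted p 0.366) and that of Gsr 0.020 (-0.025 to 0.064, adjusted p 0.612).

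No gene of the thioredoxin branch was called. Txnrd1, the cytosolic thioredoxin reductase, had a change of 0.017 (95% confidence interval -0.034 to 0.068, adjusted p 0.712). Srxn1, sulfiredoxin, repairs overoxidised peroxiredoxins and had a change of 0.029 (-0.037 to 0.095, adjusted p 0.613). Prdx1, the peroxiredoxin that removes hydrogen peroxide, had a change of -0.054 (-0.15 to 0.039, adjusted p 0.499). Each of these intervals leaves out a change as large as the point estimate of Hmox1.

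Nqo1, the quinone reductase often used as a readout of NRF2, could be followed least well. Its intensities were 17.1 to 37.2, and by its mean it was brighter than only 8.20% of genes. Its log2 intensity was 4.69 ± 0.27 (SD, n = 29) in the carrier and 4.74 ± 0.20 (SD, n = 30) in the non-carrier group, and its change -0.048 (95% confidence interval -0.15 to 0.052, adjusted p 0.577). Over the set of 10, 7 genes were lower and 3 higher, with a median change of -0.040, beside a median of 0.016 over all genes, of which 38.9% were lower.

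The level of every gene of the set depended on the run. The test of differences between runs called 10 of 10 genes, beside 94.0% of all genes, with adjusted p from limma of at most 4.17e-04. The run accounted for 41.0% (Nqo1) to 87.2% (Txnrd1) of the variance of a gene, against a median of 62.5% over all genes. The kind of serum accounted for 11.4% of the variance of Hmox1 and for at most 2.12% in the other 9.

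The widest span was that of Gclm, from 8.11 ± 0.17 (SD, n = 7) in the motorneuron run to 9.25 ± 0.072 (SD, n = 6) in run E, a 2.20-fold range. At its lower end Gclm in the motorneuron run stood 0.48 below the next run, HB9MNs, and at its upper end run E stood 0.36 above run B, both gaps larger than the SD of either run. The 7 runs between followed each other by 0.0018 to 0.095, each gap smaller than the larger SD of its neighbours. Neighbours in this order were not told apart, and runs farther apart were not compared.

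Prdx1 ranged from 9.76 ± 0.22 (SD, n = 7) in the motorneuron run to 10.8 ± 0.18 (SD, n = 6) in run B, a 2.10-fold range. The motorneuron run was also the lowest for Keap1 (7.69), Gclc (8.72), Txnrd1 (8.53) and Gsr (9.16), and run E the highest for Keap1 (8.50), Gclc (9.11) and Txnrd1 (9.28). These positions held with arrays centred on their median and after quantile normalization.

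Hmox1 differed from these genes in the motorneuron run, while in run E it also stood above the mean of the 9 runs, by 0.14. Its highest mean, 7.73 ± 0.31 (SD, n = 7), was in the motorneuron run, and its lowest, 6.90 ± 0.25 (SD, n = 11), in run C, a 1.78-fold range. Each of its 8 gaps between neighbouring runs was smaller than the larger SD of the neighbours, so that neighbours in the order were not told apart. The motorneuron run remained the highest for Hmox1 after centring (7.604) and after quantile normalization (7.64), whereas the lowest was run A after the latter. Srxn1 was also highest in the motorneuron run (7.71), but run B was higher after centring (7.63 against 7.58), and both runs stood at 7.64 after quantile normalization.

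**Figure D3:**
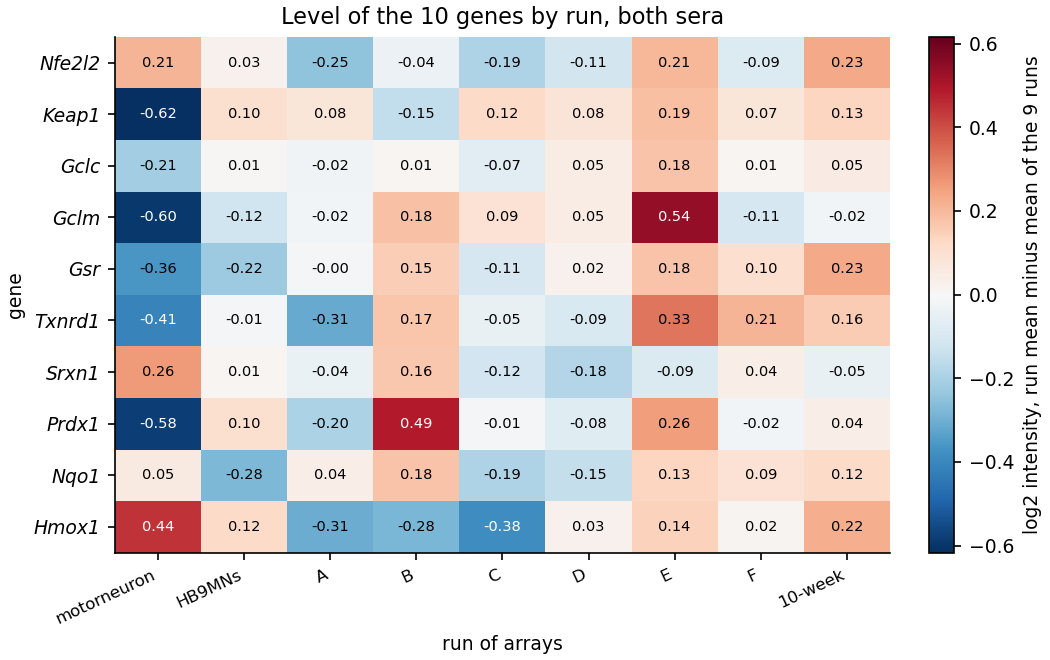
Mean log2 intensity of each of the 10 genes (rows) in each run (columns), both sera together, shown as the difference from the mean of the 9 runs (colour and printed value, log2 units). The motorneuron column is lowest for Keap1 (-0.62), Gclm (-0.60) and Prdx1 (-0.58) and highest for Hmox1 (0.44).

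Whether the change with serum differed between runs was tested as an interaction. Limma called 0 of the 10 genes, beside 0.127% of all genes (25), and 2 of the 10 had an unadjusted p under 0.05. These were Hmox1 (p = 0.00713, adjusted p from limma 0.406) and Srxn1 (p = 0.0200, adjusted p from limma 0.531), and the run differences of Srxn1 went from -0.14 in run C to 0.26 in run F. At an unadjusted p under 0.05, 7.94% of all genes passed. Between 10 and 9 weeks limma called a difference of the change for 0 of the 10 genes and for 0 of all genes. At an unadjusted p under 0.05 it gave 0 of the 10 (234 of all genes), and for Hmox1 the difference was -0.067 on the log2 scale. With 1 run of 10 weeks, age and run cannot be told apart.

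Few pairs of the set varied together from array to array. After the means of run and serum were removed, the 45 pairs of genes had Pearson's r from -0.48 to 0.51 with a median of -0.055 over 59 arrays, and 19 of the 45 were positive. A single serum term was removed for all runs, so a serum difference particular to 1 run stays in these values. The test permuted the arrays 100000 times within each run and serum, two-sided, with adjustment over the 45 pairs. By Pearson's r 1 pair passed, Txnrd1 and Prdx1 (r = 0.51, permutation p = 6.2e-04, adjusted p 0.0279; Spearman's rho = 0.50, permutation p = 3e-04, adjusted p 0.0135). Without the 2 arrays farthest from the median of Txnrd1, r was 0.55, and r was positive in 7 of the 8 runs with at least 6 arrays. Correlations at least as large as this one, in either direction, were found in 3.89% of the pairs of 1 of the 10 genes with any gene of the table. Along the same arrays, Txnrd1 had r = -0.38 and Prdx1 r = -0.40 with the log2 median intensity of the array. With that median removed as well, the pair had r = 0.42 (permutation p = 0.0104, adjusted p 0.094) and missed the threshold, as it did without run C (r = 0.33), without the motorneuron run (0.52) and without run A (0.46).

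Hmox1 had negative correlations with a thioredoxin and a glutathione gene, which passed the test by Spearman's rho and missed it by Pearson's r. The value was r = -0.47 with Txnrd1 (rho = -0.43, permutation p = 0.00227 and 0.00175, adjusted p 0.0511 and 0.0386). With Gclm r was -0.47 (rho = -0.42, permutation p = 0.00466 and 0.00343, adjusted p 0.0622 and 0.0386). Without the 2 arrays farthest from the median of Hmox1 these were -0.45 and -0.39. Nfe2l2 and Gclc had r = 0.46 (rho = 0.38, permutation p = 0.00553 and 0.00333, adjusted p 0.0622 and 0.0386), and by rho 4 of the 45 pairs passed. Nfe2l2 and Hmox1, factor and target, had r = 0.49 (rho = 0.46, permutation p = 0.0274 and 0.0266, adjusted p 0.176 and 0.120), with a positive r in 6 of 8 runs.

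The genes whose array-to-array pattern was most like that of Hmox1 were Ddit4, Ddit3 and Ciart (listed as Gm129), with r = 0.85, 0.78 and 0.78 over 59 arrays after run and serum were removed. Ddit4 is a stress-induced inhibitor of mTORC1, Ddit3 encodes CHOP and Ciart is a repressor of the circadian clock. Their Spearman's rho was 0.81, 0.77 and 0.75. Without the 2 arrays farthest from the median of Hmox1, r was 0.82, 0.72 and 0.72, and r was positive in 8 of 8 runs for each of them, from 0.20 for Ddit3 in run E to 0.95 for Ddit4 in run B. In run B the values left for Hmox1 and Ddit4 were positive in all non-carrier arrays and negative in all carrier arrays. The r of run B thus holds the serum difference particular to that run. All 3 genes were also lower with carrier serum, with changes of -0.31 for Ddit4 (adjusted p from limma 0.0367), -0.29 for Ddit3 (0.0298) and -0.37 for Ciart (0.00618). They were picked for their r, so no p is given for it.

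A list of 14 genes under ATF4 and CHOP, the factors of the amino acid and unfolded protein responses, had r with Hmox1 from 0.22 (Phgdh) to 0.85 (Ddit4), with a median of 0.68, and 8 of the 14 were among the 100 genes most like Hmox1. For the other 9 genes of the set the median r with this list lay between -0.25 (Gclm) and 0.37 (Nfe2l2), and at most 1 gene of the list was among their 100 most alike. None of the 10 had another of the 10 among its 100 most alike genes. Among 19613 genes few such cases would come by chance, so this says little about the set. The list was made with the fall of ATF4 and CHOP targets in these data known.

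**Figure D4:**
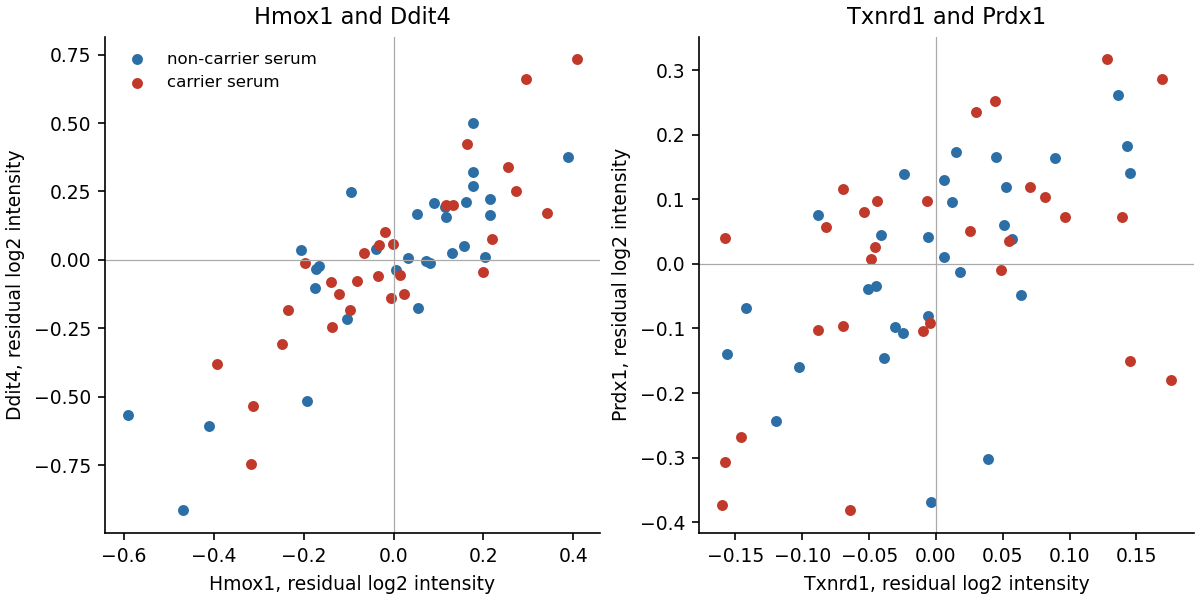
Log2 intensity left after the means of run and serum were removed, with 1 serum term for all runs, 1 point per array (59 arrays), coloured by serum. The left panel shows Ddit4 (y axis) against Hmox1 (x axis), the right panel Prdx1 (y axis) against Txnrd1 (x axis). The points of the left panel follow a line with r = 0.85, those of the right panel spread more widely with r = 0.51.

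Other genes of the set resembled different partners. Txnrd1 was most like Xiap, an inhibitor of caspases (r = 0.83), Sephs1 (0.79) and Rspry1 (0.79). For Prdx1 they were the proteasome subunit Psma6 (0.83), the ATP synthase subunit Atp5h (0.83) and the translation factor Eif1ax (0.83), and for Gclm Chp1 (listed as 1500003O03Rik, 0.79), Pknox2 (0.75) and Son (0.73). Gclc was most like Med23 (0.76), Vps41 (0.76) and Bdp1 (0.75), and Nfe2l2 like Rbbp5 (0.73), Hbp1 (0.68) and Gas5 (0.68). Keap1 was most like Dhrs1 (0.67), Fam131b (0.66) and Id4 (0.64). Gsr followed Ercc1 (0.67), Ccl27a (0.64) and B9d1 (0.63), and Nqo1 followed Trpc7 (0.58), Msantd1 (listed as A930005I04Rik, 0.57) and Nmnat2 (0.56). Srxn1 was most like Scnn1a (0.78), Il25 (0.77) and Cblc (0.77). Srxn1 and Gclc were also the genes of the set most tied to the median intensity of the array, with r = 0.63 and -0.61, whereas Hmox1 had r = 0.046.

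Around the set, some other genes of the NRF2 pathway were called, all of them lower. Of the genes that act on NRF2, 10 of 11 were measured (Bach1 was not analysed here), and 2 fell, beside 1.65% of all genes called lower. Sqstm1 encodes p62, which captures KEAP1, and changed by -0.074 (standard error 0.017, adjusted p from limma 0.0131). Nfe2l1, the relative of NRF2 that drives proteasome genes, changed by -0.079 (standard error 0.022, adjusted p from limma 0.0374). Both were lower in 8 of 9 runs, and 5 of the 10 genes were lower in all, with a median change of -5.27e-04.

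Among 22 of 23 further NRF2 targets measured, 2 fell and 0 rose, beside 1.65% of all genes called lower and 0.683% called higher. Slc7a11, the cystine transporter that feeds glutathione synthesis, went from 6.72 ± 1.60 with non-carrier serum (SD, n = 30) to 6.26 ± 1.40 with carrier serum (SD, n = 29), a difference smaller than the spread over all arrays. Within runs it was -0.46 (standard error 0.11, limma's adjusted p 0.0202). Abcc1, an exporter of glutathione conjugates, changed by -0.087 (standard error 0.021, adjusted p from limma 0.0190). The median over the 22 genes was -0.015, and 14 were lower.

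Of 26 other antioxidant enzymes, 1 was called lower and 1 higher, beside 1.65% of all genes called lower and 0.683% called higher. Sesn2, a sestrin induced by stress, fell by 0.25 on the log2 scale (standard error 0.059, adjusted p from limma 0.0132). Cat, the catalase gene, rose by 0.088 (standard error 0.021, adjusted p from limma 0.0149) and was higher in 9 of 9 runs. The median of the 26 was -0.0075.

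Of 12 genes of haem and iron handling, the pathway of the haem oxygenase reaction, 0 were called by limma. At an unadjusted p under 0.05 it gave 2 of them, beside 20.7% of all genes. The lowest p was that of Uros, an enzyme of haem synthesis (-0.089, adjusted p 0.0711), followed by the ferritin gene Fth1 (-0.059, adjusted p 0.151). Hmox2, the constitutive haem oxygenase, had a difference of 0.017 (adjusted p 0.693).

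The ATF4 and CHOP list gave the largest count, with 12 of 14 genes lower past the threshold and 0 higher, beside 1.65% of all genes called lower. The list was made with the fall of such targets in these data known, so its count and median are no independent test. Its members Slc7a11 and Sesn2 are the same genes as above. The falls ran from -0.20 for Psat1, an enzyme of serine synthesis, to -0.46 for Slc7a11, with -0.43 for Chac1, a glutathione-degrading enzyme, -0.42 for Cth, which makes cysteine, and -0.39 for Atf3. Atf4 changed by -0.25, Trib3 by -0.28, Asns by -0.24 and Slc3a2, the partner chain of the cystine transporter, by -0.21. Phgdh (-0.093, adjusted p 0.0925) and Vldlr (-0.13, adjusted p 0.125) missed the threshold. The median of the list was -0.27, beside -0.040 for the 10 NRF2 genes.

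**Figure D5:**
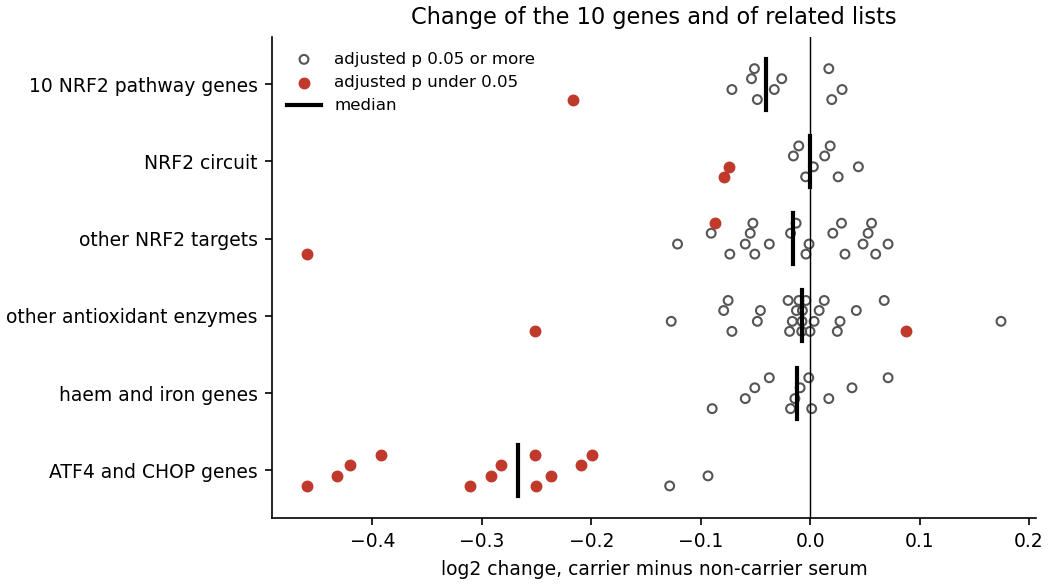
Log2 change with carrier serum (x axis) of the 10 NRF2 pathway genes and of each measured gene of 5 related lists, 1 point per gene, filled where the adjusted p was under 0.05, with a bar at the median of each list; Slc7a11, Sesn2, Fth1, Ftl1, Blvrb and Slc48a1 appear in 2 lists. The median of the ATF4 and CHOP genes, listed with their fall in these data known, is -0.27, and those of the other rows lie between -0.040 and 0.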

How the data were processed

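Total RNA of 59 embryoid body cultures was hybridised to Affymetrix mouse exon arrays, 1 colour. The deposited values are gene intensities on a linear scale, which the authors made with RMA and the mean of the exons of each gene after leaving out outlying arrays; whether exons were averaged as logs is not given in the sources used here. The submitters' processing notes also name Affymetrix Expression Console. The values were taken as log2 with a pseudocount of 0, without filter. Groups came from the sample descriptions and runs from the titles. Two-sided fits of the change used R 4.3.3 and limma 3.58.1, with a fixed term for the run. Adjusted p-values follow Benjamini-Hochberg over 19613 genes, at a threshold of 0.05. F tests served for runs and for the interaction. Pairs were tested with 100000 permutations in Python 3.11.15, whose smallest p is 1e-05. Precision is set by how many arrays there are. The fits were tested on simulated data.

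The genes and lists were chosen with earlier results of these data known. The genes named from a list were those called for serum, or else the one with the lowest p (Fth1, Hmox2, Phgdh and Vldlr were named after their values were seen), and for each of the 10 genes the 3 with the highest r. Alternatives covered the block, motor neuron covariates, scaling, the variance model, array weights, dim genes, an offset of 16, and runs left out. Leaving out arrays of low correlation, run C in parts for the interaction, and pairs with the array median removed were added after seeing the data. Astrocyte, pluripotent, endothelial and fibroblast markers were also tested. Of 3 astrocyte markers 1 was called (Slc1a2, -0.068, adjusted p from limma 0.0307), beside 2.33% of all genes. Gfap (0.033, adjusted p from limma 0.583) and Aqp4 (0.065, adjusted p from limma 0.273) went the other way and were not called. Of the pluripotent, endothelial and fibroblast markers 0 of 3, 3 and 4 were called, with 2, 1 and 1 at an unadjusted p under 0.05, beside 20.7% of all genes. Promoter sequences came from RefSeq windows of GRCm38.p6. A further marker is not reported here.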

Additional observations from a re-analysis of the deposited data

Results flagged for a closer look

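In 4 groups of 4 to 6 arrays of 1 run and serum, the lowest or highest array was compared with its group for each of the 10 genes, which makes 40 comparisons. Chance flags about 1 in 20, and 3 were found, each a low array. Hmox1 in the carrier arrays of run C had 1 array at 6.49, below the others at 6.96 to 7.21. Gclm in the non-carrier arrays of run C had 1 array at 8.57 against 8.93 to 8.97; this array was also 1 of the 2 with a low correlation to its run. Gclc in the non-carrier arrays of the motorneuron run had 1 array at 8.53 against 8.80 to 8.82. Their causes were not tested.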

How the results depend on the processing

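Of the 10 genes, 1 (Hmox1) was called for serum, and the count was unchanged with run C parted into 2 blocks, arrays centred on the median, quantile normalization, a variance trend with robust estimation and 16 added before log2. It was 0 with no block (limma, 1 of 10 genes at an unadjusted p under 0.05), 0 with 4 motor neuron genes as covariates in place of the run (3), 0 of 8 with genes below the median intensity left out, which removes Hmox1 and Nqo1 themselves (1), 0 without runs E and F (1), 0 with runs E and F alone (1) and 0 without the 2 arrays of low correlation (3). It was 4 with run and 4 motor neuron genes (also Nfe2l2, -0.096, Gclc, -0.075, and Srxn1, 0.097), where 31.2% of all genes were called, and 2 with array weights (also Gclc, -0.053), where 14.3% were. With 1 run left out it ranged from 0 to 1, where 0.54% (without run D) to 8.16% (without run C) of all genes were called. Of all genes, 0 were called with no block and 0.275% with the 4 motor neuron genes in place of the run. The share was 6.68% without dim genes and 3.65% without the 2 arrays of low correlation. Without runs E and F it was 0.301%, and with these runs alone 0.0867%. Hmox1 was negative in 22 of 22 alternatives. With run and 4 motor neuron genes, Nqo1 turned to 0.036 and Txnrd1 to -0.025, with these genes and no run block Txnrd1 turned to -0.045 and Gsr to -0.011, and in runs E and F alone Nqo1 turned to 0.0098, Txnrd1 to -0.025 and Gsr to -0.0098; none of these was called. The difference between runs was called for 10 of 10 genes (8 of 8 without dim genes) and the interaction for 0 under every alternative run. Gene pairs past the threshold numbered 1 as reported, 0 with run C in 2 blocks (10 of 45 at an unadjusted p under 0.05), 0 after quantile normalization (7), 2 with centred arrays and 0 to 3 with 1 run left out. With the array median removed 1 pair passed, Hmox1 and Txnrd1 in place of Txnrd1 and Prdx1.

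Of the 78 genes of the related lists, 16 were called, 16 with centred arrays and 0 with no block (15 at an unadjusted p under 0.05). Of all genes, 2.33% were called as reported, 2.28% with centred arrays and 0 with no block. The ATF4 and CHOP list, made with its fall in these data known, held 12 of the 16. Every called list gene kept its sign in all alternatives. With each run left out in turn, Atf4, Cth and Trib3 kept their call in 9 of 9 cases; Slc3a2 lost it without run D, Sqstm1 without D or 10-week, Cat without A, B or 10-week, Asns and Slc7a11 without B, D, F or 10-week, Chac1 and Sesn2 without B, D, E or F, Abcc1 without A, B, D, F or 10-week, Atf3 without B, D, E, F or 10-week, and Ddit3, Ddit4, Nfe2l1 and Psat1 without A, B, D, E, F or 10-week. The causes were not tested.

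Numbers in the titles are shared between carrier and non-carrier arrays in 3 runs. There the deviations of same-numbered arrays from their group correlated with r from -0.14 to 0.33. With so few arrays per group, these values cannot decide whether such arrays were paired. With a replicate block in these 3 runs 1 of the 10 genes was called, Hmox1 (-0.22, adjusted p from limma 0.0205). Signal over background limits dim genes such as Nqo1.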
